A study of Mus musculus with 2 samples.

Results

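The chaperonin CCT, also called TRiC, is a folding machine of the cytosol built from 8 different but related subunits, Tcp1, Cct2, Cct3, Cct4, Cct5, Cct6a, Cct7 and Cct8. These 8 genes were chosen by a measured value: several of them had already been seen to mark, by their level, a large group of shallowly sequenced cells in these libraries. Of the 8, 7 had a value among the 18131 genes of both libraries, and Cct6a was not analysed here. The level of a subunit in shallow against deep cells is therefore given below as a description of what chose the genes, and nothing is drawn from it.

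CCT is assembled from a pair of stacked rings, and each ring holds every subunit once. Unfolded actin and tubulin chains, its best known clients, enter the cavity of a ring and leave folded after ATP is used. Prefoldin hands newly made chains to CCT, phosducin-like proteins such as Pdcl assist it, and tubulin cofactors take over tubulin after folding. The genes are needed in every cell, and their mRNA is usually most abundant where cells grow and divide quickly, as in the midgestation embryo.

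The cells came from C57BL/6 embryos at E9.5, dissected between the level of the middle otic placode and the rear of somite 4, where the cardiac neural crest cells (NCCs) leave the neural tube. One library was made per genotype: WT from Prdm6+/+; Wnt1-Cre2; ZsGreen1 embryos and KO from Prdm6f/f; Wnt1-Cre2; ZsGreen1 embryos. Both thus carry the Cre transgene and the ZsGreen1 reporter. By design Cre is active in the Wnt1 lineage only, and cells of other lineages keep Prdm6 in both. This was not checked by cell group here. No sort was described, and the cells of a library could not be traced to single embryos here. With 1 library per genotype, no difference has a replicate check and no test is given. The authors' methods report batch effects seen by eye between the conditions, which they corrected in the graph used for clustering and display. The levels given here carry no batch correction.

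In WT 11958 cells were sequenced to a median depth of 1597 unique molecular identifiers (UMIs, each standing for 1 captured transcript), and in KO 9765 cells to 1703. Totals leave out mitochondrial and ribosomal protein genes. The libraries shared 26 cell barcodes. Levels are given as CPM, the UMIs of a gene per 1000000 UMIs of the cells summed. Prdm6, the targeted gene, stood at 5.00 CPM in WT (104 UMIs) and 3.12 in KO (59 UMIs), and 3′ reads do not tell the deleted allele from the intact one. The samples are labelled as cardiac NCCs, but only 3.31% of WT and 3.16% of KO cells met the marker rule for migrating NCCs explained below, and endothelial, erythroid and neural tube cells were also present.

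The subunit genes lie on 7 different chromosomes, given here for GRCm38 with the GENCODE vM21 gene bounds. Tcp1 (ENSMUSG00000068039.13) lies on chromosome 17 from 12915701 to 12925067 on the plus strand. Cct2 (ENSMUSG00000034024.8) lies on chromosome 10 from 117051001 to 117063814 on the minus strand, and Cct3 (ENSMUSG00000001416.13) on chromosome 3 from 88297116 to 88321767 on the plus strand. Cct4 (ENSMUSG00000007739.10) lies on chromosome 11 from 22990519 to 23003780, plus strand. Cct5 (ENSMUSG00000022234.15) lies on chromosome 15 from 31590800 to 31601804, minus strand. Cct7 (ENSMUSG00000030007.8) lies on chromosome 6 from 85451514 to 85468475, plus strand, and Cct8 (ENSMUSG00000025613.13) on chromosome 16 from 87483326 to 87495873, minus strand.

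Of the 7 measured subunits, 4 had the start of another protein-coding gene on the opposite strand within 1000 bases of their own start: Mrpl18 at Tcp1, Tsacc at Cct3, Fam173b at Cct5 and Pradc1 at Cct7. Such a head-to-head neighbour was present for 17.2% of the 10208 protein-coding genes with at least 200 UMIs. The distance between the annotated starts was 117 bases at Cct3 and 48 bases at Cct5, while the annotated genes overlap at Tcp1 and Cct7. Cct8 overlaps Usp16 at its other end, and Tcp1 also overlaps Acat3. How the authors' counting used strand is not given in the sources used here, so reads in overlapped stretches are uncertain, and so are reads shared with the processed pseudogenes Tcp1-ps1 and Cct3-ps1.

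The stretches next to the starts of Cct2, Cct3 and Cct5 are shown because they lie outside every annotated gene, and those of Cct3 and Cct5 lie in the gap shared with the neighbouring gene. They were taken from RefSeq promoter windows of GRCm38.p6 and read 5′ to 3′ on the strand of the subunit gene. The windows span 300 bases around a start, and 6 of the 7 measured subunits matched one, Cct4 being the other. Capitals mark a CCAAT box on either strand. They also mark the GC box, GGGCGG. The ETS motif, CCGGAAG, is marked as well.
Cct3, chr3:88297016-88297115, plus strand: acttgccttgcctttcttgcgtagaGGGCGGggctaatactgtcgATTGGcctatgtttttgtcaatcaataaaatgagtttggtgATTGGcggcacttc
Cct2, chr10:117063815-117063914, minus strand: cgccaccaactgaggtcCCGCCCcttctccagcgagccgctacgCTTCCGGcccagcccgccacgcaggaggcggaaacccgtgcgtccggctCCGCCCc
Cct5, chr15:31601805-31601851, minus strand: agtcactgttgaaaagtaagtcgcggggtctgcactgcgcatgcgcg

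GGGCGG was present in the windows of all 6 subunits and of 38.2% of 27025 genes with a window. CCGGAAG was present in 3 of the 6 (Tcp1, Cct2 and Cct8), against 9.93% of genes, and CCAAT in 3 of the 6 (Tcp1, Cct3 and Cct7), against 41.1%. CACGTG (E-box) was in 0 of the 6 and in 8.09% of genes, and GAANNTTC, the core of a heat shock element, in 1 of the 6 (Cct2) and in 9.04% of genes. In the stretches shown no marked motif overlaps another, and a match of letters is a description, not a binding site.

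The subunits were among the more abundant mRNAs in both libraries, at levels that lay close together. Over all cells each ranked between 208 and 425 of the 18131 genes, and each had 0.697 to 1.06 UMIs per cell in WT and 0.768 to 1.27 in KO. Since 3′ counting gives about 1 UMI per captured transcript whatever its length, levels are compared between subunits without division by length. Summed over the 7 subunits, the WT library had 75193 UMIs (3618 CPM, 95% interval 3592 to 3644) and the KO library 70459 UMIs (3721 CPM, 3693 to 3748), or 0.362% and 0.372% of all UMIs. Intervals are exact Poisson intervals, or for ratios exact conditional intervals, and all cover counting error only.

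Tcp1, the founding member of the family, had 608 CPM in WT and 555 in KO, a log2 ratio of KO over WT of −0.13 (−0.17 to −0.09). Cct3 had 603 CPM in WT and 656 in KO (0.12, 0.09 to 0.16). The intervals of these most abundant subunits overlapped in WT, at 597 to 619 for Tcp1 and 592 to 613 for Cct3. In KO they did not, and Cct3 was the higher. Cct5 had 541 CPM in WT and 540 in KO (−0.0016, −0.04 to 0.04), and Cct4 had 523 and 537 (0.04, 0.00068 to 0.08). Cct7 had 486 CPM in WT and 547 in KO (0.17, 0.13 to 0.21), and Cct8 had 458 and 489 (0.10, 0.05 to 0.14). Cct2 was the lowest in both, with 401 CPM in WT and 396 in KO (−0.02, −0.06 to 0.03). Cct6b, a paralog of Cct6a best known from testis, had 2 UMIs in each library, under the floor of 3, and no ratio is given.

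The differences between the libraries were small for every subunit. The threshold for counting a gene was a level over 25% higher in one of the compared sets, a log2 ratio beyond 0.32. None of the 7 passed it in either direction, and 14.5% of the 10513 genes with at least 200 UMIs did. The summed subunits gave a log2 ratio of 0.04 (0.03 to 0.06), against a median of −0.06 over those genes, and 6 of the 7 subunits lay above that median. Tcp1 was the exception. When cells were weighted so that both libraries had the same shares of cells in 5 bins of depth, the summed ratio became 0.12. Scaling by a median of ratios over genes put Cct2 and Cct5 at 0.04 and 0.05, on the other side of 0.

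By depth, the cells of both libraries together were divided into 5 bins of like size, with bounds at 1180, 1455, 1860 and 2421 UMIs. The shallowest bin held 25.9% of WT and 12.8% of KO cells, and the deepest 15.9% and 25.1%. From the shallowest to the deepest bin, the summed subunits had 5249, 4563, 3689, 3132 and 2700 CPM in WT. In KO they had 5376, 5072, 4516, 3418 and 2698 CPM. The level fell at every step in both libraries, and the ends of the range were nearly alike between them.

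**Figure D1:**
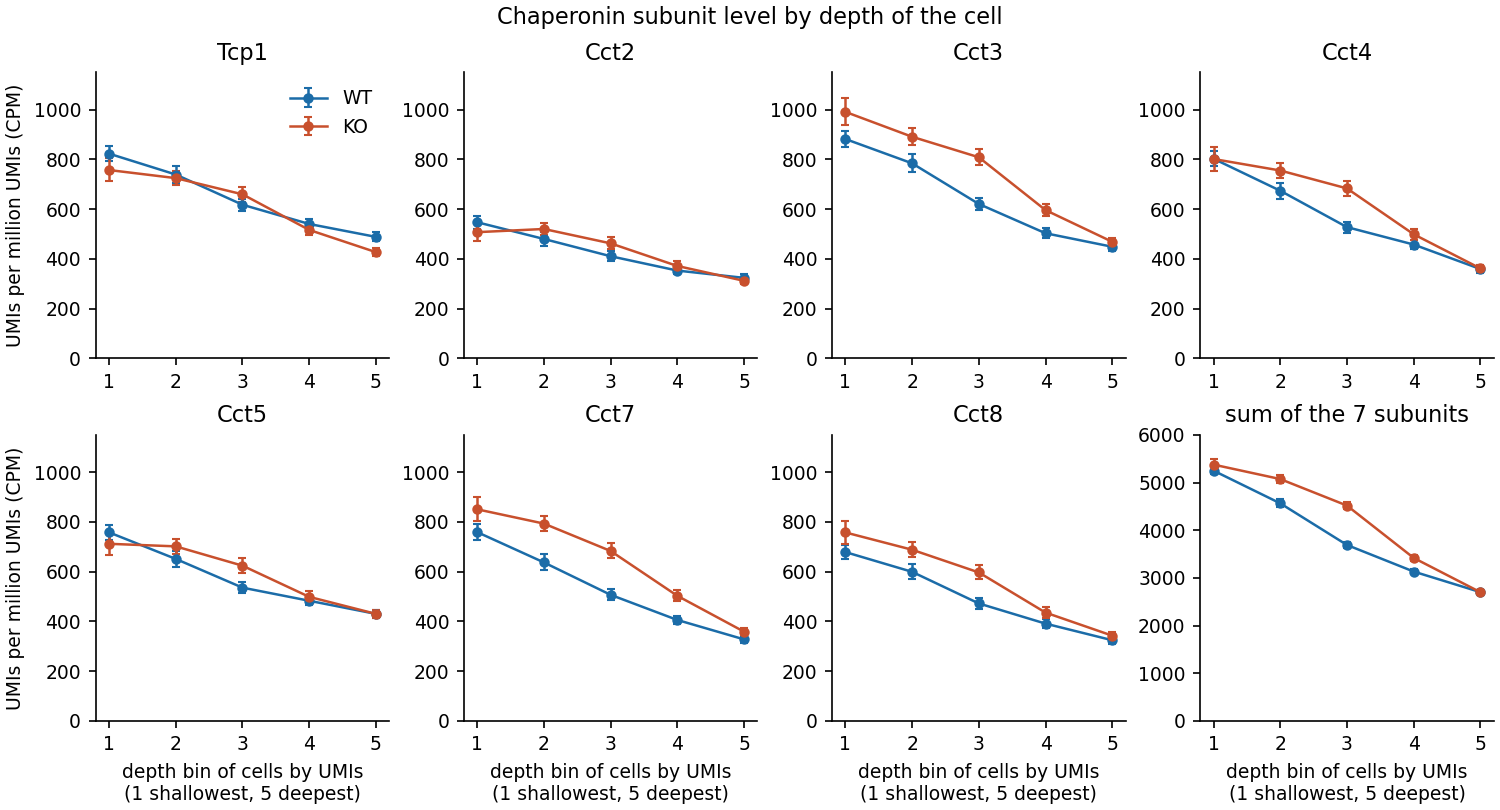
Level of each measured chaperonin subunit, and of their sum, in CPM (vertical axes from 0, with a taller scale for the sum) over 5 depth bins of cells by UMI number, from 1, the shallowest, to 5, the deepest; blue is WT, red is KO and bars are exact Poisson intervals of 95%. The level fell at each step for every subunit in WT and for every subunit but Cct2 in KO, and the summed levels of the libraries lay furthest apart in depth bin 3.

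Each of the 7 subunits was past the threshold, higher in the shallowest than in the deepest bin, in WT and in KO, as were 25.8% and 26.3% of the genes. In the other direction, 29.2% of genes in WT and 32.5% in KO and 0 of the 7 subunits were past it. Because a marked excess in shallow cells chose the genes, nothing is read from this count. Cct7 went furthest: it had 759 CPM in shallow and 327 in deep WT cells, a log2 ratio of 1.21, and 851 and 358 CPM in KO (1.247). Cct4 had 802 and 359 CPM in WT (1.16) and 801 and 361 in KO (1.15). Cct8 had 679 and 324 CPM in WT (1.07) and 758 and 343 in KO (1.15), and Cct3 had 882 and 448 CPM in WT (0.98) and 991 and 468 in KO (1.08). These 4 subunits were about 2-fold higher in shallow cells.

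The other subunits had a smaller excess. Tcp1 had 823 CPM in shallow and 488 in deep WT cells (0.75, 0.68 to 0.83), and 757 and 427 in KO (0.83, 0.72 to 0.93). Cct5 had 758 and 430 CPM in WT (0.82) and 712 and 430 in KO (0.73), and Cct2 had 547 and 323 CPM in WT (0.76) and 507 and 311 in KO (0.70). In KO, Cct2 was 507 CPM in the shallowest bin and 520 in the next, the only step at which a subunit did not fall. The intervals of Tcp1, Cct2 and Cct5 did not overlap those of Cct4, Cct7 and Cct8 in either library. These are descriptions of the value that chose the genes.

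In UMIs per cell the order turned around. A cell of the deepest bin had 7.98 subunit UMIs on average in WT and 8.32 in KO, and a cell of the shallowest had 5.31 and 5.93. Subunit UMIs per cell thus rose 1.50-fold in WT and 1.404-fold in KO, while the depth rose 2.92-fold and 2.80-fold. Cct7 rose least, 1.26-fold in WT and 1.18-fold in KO, and Cct2 and Tcp1 rose by 1.73-fold each in WT.

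Other features of the libraries moved with depth, and their part in these values was not tested. Malat1, a nuclear RNA, went the opposite way, from 1214 CPM in the shallowest to 3876 in the deepest bin of WT and from 1333 to 3530 in KO. Actb, which encodes the client actin, rose from 12711 to 23285 CPM in WT and from 9854 to 20522 in KO. Globin mRNA in cells outside the erythroid group fell as the subunits did, from 8455 to 3122 CPM in WT and from 4268 to 1425 in KO. In UMIs per cell, however, globin stayed between 8.56 and 9.62 in every bin of WT and between 4.40 and 5.43 in KO, with no steady rise from shallow to deep, whereas the subunits rose. The summed level of 12 of 18 marker lists was lower in shallow cells in both libraries, and that of 4 (neural tube, dorsal neural tube, neuron and sclerotome) was higher in both. After each cell of at least 1000 UMIs was thinned to 1000 UMIs, the median number of genes per cell stayed between 755 and 768 in every bin. This leaves out 1361 WT and 125 KO cells under 1000 UMIs, all of them in the shallowest bin.

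Between cells of like depth, the libraries differed most in the middle. In depth bin 3, the summed subunits had 3689 CPM in WT and 4516 in KO, a log2 ratio of 0.29 (0.26 to 0.33). In depth bins 1, 2, 4 and 5 the ratio was 0.03, 0.15, 0.13 and −0.00075. In depth bin 3, 4 of the 7 subunits were past the threshold and higher in KO, as were 10.3% of genes in that bin. They were Cct7 (507 CPM in WT and 683 in KO, 0.43), Cct3 (620 and 808, 0.38), Cct4 (527 and 683, 0.37) and Cct8 (472 and 597, 0.34). In depth bins 1, 2, 4 and 5, 0 of 7 subunits were, against 11.8%, 9.51%, 9.26% and 8.32% of genes. Tcp1 had the lowest ratio of the 7 in every bin, from −0.19 in depth bin 5 to 0.09 in depth bin 3. Other genes also differed between the libraries in depth bin 3. Malat1 had 2901.5 CPM in WT and 1934 in KO, and Actb had 18880 and 13764.5. Eef1a1, a translation elongation factor, had 8190 and 9626 CPM, and Hspa8, the constitutive Hsp70, had 2585 and 3006. Gm42418, a gene that overlaps a ribosomal RNA repeat, had 1076 and 3278 CPM. It was higher in KO in every bin, with 1799 and 4335 CPM in depth bin 1 and 760 and 1491 in depth bin 5. The part of these genes in the subunit values was not tested.

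**Figure D2:**
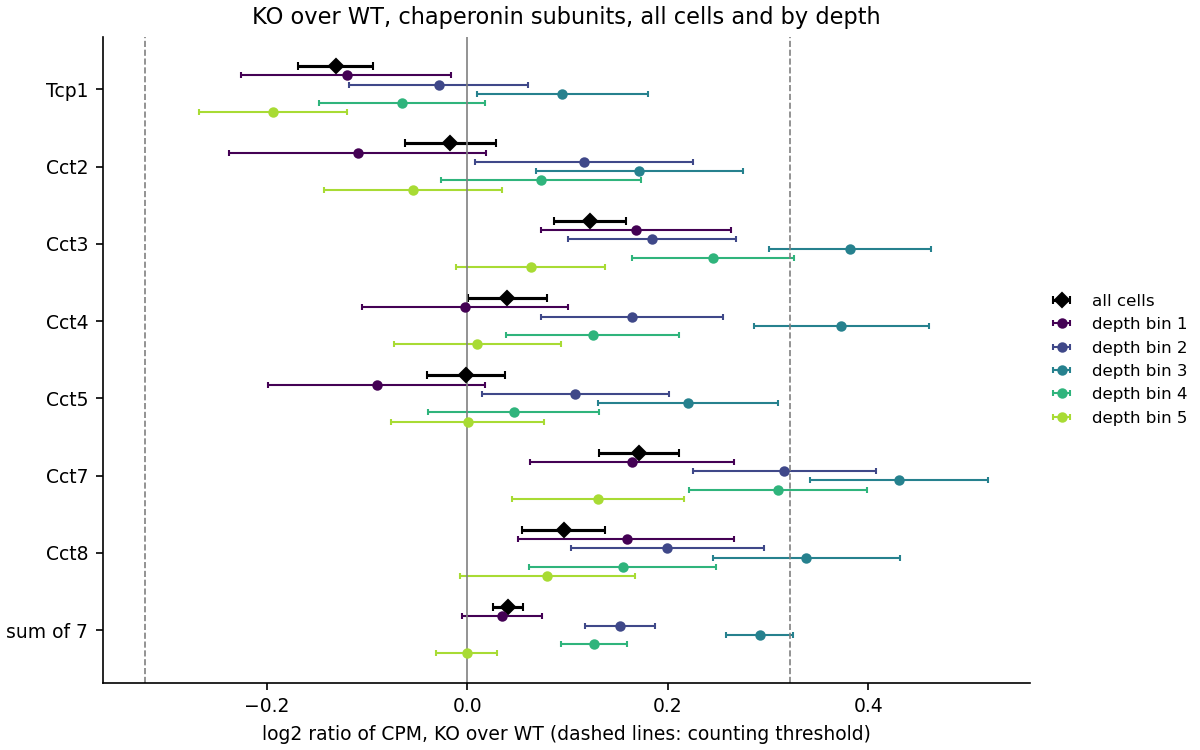
The log2 ratio of CPM of KO over WT (horizontal axis) for each chaperonin subunit and for their sum, over all cells (black diamonds) and in each depth bin (coloured points), with exact conditional intervals of 95%; dashed lines mark the threshold of 0.32. Only points of depth bin 3, of Cct3, Cct4, Cct7 and Cct8, lie past the right dashed line, and no point lies past the left one.

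The share of each subunit in the summed UMIs, its place in the make-up of the set, differed by less than 2 points between the libraries. Tcp1 made up 16.8% in WT and 14.9% in KO, and Cct3 16.7% and 17.6%. Cct4 made up 14.4% in both, Cct5 14.9% and 14.5%, and Cct7 13.4% and 14.7%. Cct8 made up 12.6% and 13.1%, and Cct2 11.1% and 10.6%. Intervals for the shares were at most about 0.3 points to either side, and those of WT and KO did not overlap for Tcp1, Cct3, Cct7 and Cct8. From shallow to deep cells, the share of Tcp1 rose by 2.40 points in WT and 1.73 in KO, that of Cct5 by 1.49 and 2.70 and that of Cct2 by 1.55 and 2.10. The share of Cct7 fell by 2.33 points in WT and fell by 2.54 in KO. That of Cct4 fell by 2.00 points in WT and fell by 1.52 in KO.

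Cell groups were set by marker genes, since no deposited annotation was used. A cell joined a group when it had UMIs of at least 2 different markers of that group and of fewer markers of every other. With all the markers, 44.2% of WT and 48.3% of KO cells met the rule for cardiac muscle, because 8 of its 10 markers were found in over 10% of all cells (Actc1 in 53.8% of WT cells). Those cells are not called cardiac muscle here. Among groups with at least 50 cells in both libraries, they had the highest summed subunit level, 3771 CPM in WT and 3980 in KO. Migrating NCCs had the lowest in WT, 2828 CPM, and 3005 in KO. The log2 ratio between these groups was 0.42 (0.34 to 0.49) in WT and 0.41 in KO. In the depth bins that held at least 10 cells of both groups, 4 of 5 in WT and 3 of 5 in KO, the ratio was 0.30 and 0.25, and it was 0.12 and 0.14 when the groups were also given the same shares of cells in those bins. It was −0.10 and −0.27 once markers found in over 10% of cells were left out, a change made after the data were seen. Groups below are those without such markers, which left 153 WT and 89 KO cells in the cardiac muscle group and 68.2% and 71.4% of cells in no group.

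The subunits were found in each of the 11 groups with at least 50 cells in both libraries. In WT, the summed level was 3830 CPM in neurons (286 cells), 3678 in the neural tube group (395 cells) and 3409 in the dorsal neural tube and roof plate group (143 cells). It was 3157 CPM in the floor plate group, 3104 in both the erythroid and the endothelial group, and 2938 in splanchnic mesoderm. In arch mesenchymal NCCs it was 2924 CPM, in migrating NCCs 2869, in pharyngeal mesoderm 2850 and in cardiac muscle 2684. In this order every group's interval overlapped that of the next, in 10 of 10 pairs, although the ends of the order did not overlap. Cells in no group had 3913 CPM in WT and 4073 in KO, above each of the 11 groups in both libraries.

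In KO the same 3 groups were highest, with 3749 CPM in the neural tube group, 3548 in neurons and 3546 in the dorsal neural tube and roof plate group. Cardiac muscle was again lowest at 2429 CPM, and it was the only group whose interval did not overlap that of its neighbour, splanchnic mesoderm at 2822 CPM. Arch mesenchymal NCCs had 3167 CPM, floor plate 3165, pharyngeal mesoderm 3030, endothelial cells 2971, migrating NCCs 2938 and erythroid cells 2875. Of the 11 groups, 6 were higher in KO than in WT. Depth moved with this order: the median was 1555.5 UMIs in WT neurons and 1966 in KO neurons, against 2531 and 3297 in cardiac muscle.

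For this reason the groups were also compared among cells of depth bins 3 and 4, between 1455 and 2420 UMIs, where 8 groups kept 50 cells in each library. In WT the level then ran from 3014 CPM in migrating NCCs to 3728 in neurons, a log2 range of 0.31, against 0.42 for the same groups over all depths. In KO it ran from 3175 CPM in erythroid cells to 3899 in the neural tube group, a range of 0.30 against 0.41. Neurons, neural tube and dorsal neural tube stayed highest in both libraries, while floor plate was at place 7 of 8 in WT with 3136 CPM, below the erythroid group (3337 CPM). In WT, however, the intervals of neurons (3474 to 3995), dorsal neural tube (3195 to 3797) and floor plate (2913 to 3372) overlapped that of erythroid cells (3197 to 3482). In KO that of dorsal neural tube (3369 to 4053) overlapped that of endothelial cells (3297.5 to 3667). These places are thus not settled by the counts. Migrating NCCs, which belong to the Wnt1 lineage, had 3014 CPM in WT (197 cells) and 3448 in KO (65 cells), a log2 ratio of 0.19 (0.03 to 0.35). Endothelial cells, which by design keep Prdm6, had 3189 and 3479 CPM, a ratio of 0.13 (0.03 to 0.22). The neural tube group had 3416 and 3899 (0.19, 0.07 to 0.31). Over all depths, the endothelial ratio lay on the other side of 0, at −0.06, and the interval of migrating NCCs held 0. The ratios of the other groups had intervals that held 0: 0.10 in floor plate, 0.09 in dorsal neural tube and roof plate, 0.02 in splanchnic mesoderm, 0.0068 in neurons and −0.07 in erythroid cells. Cells in no group, at these depths 3156 in WT and 2540 in KO, had 3454 and 4074 CPM, a ratio of 0.24 (0.21 to 0.27). This was above the ratio of each of the 8 groups. Its interval overlapped those of the neural tube group, migrating NCCs, endothelial cells, floor plate and dorsal neural tube. Malat1, Actb and Gm42418 also differed between the libraries in both bins. In depth bin 4 they had 3569, 22376 and 880 CPM in WT and 3086, 18478 and 2052 in KO. Their part in these values was not tested. Median depth still differed, at 2069 UMIs in WT and 1887 in KO for migrating NCCs. The difference between groups was not tested.

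**Figure D3:**
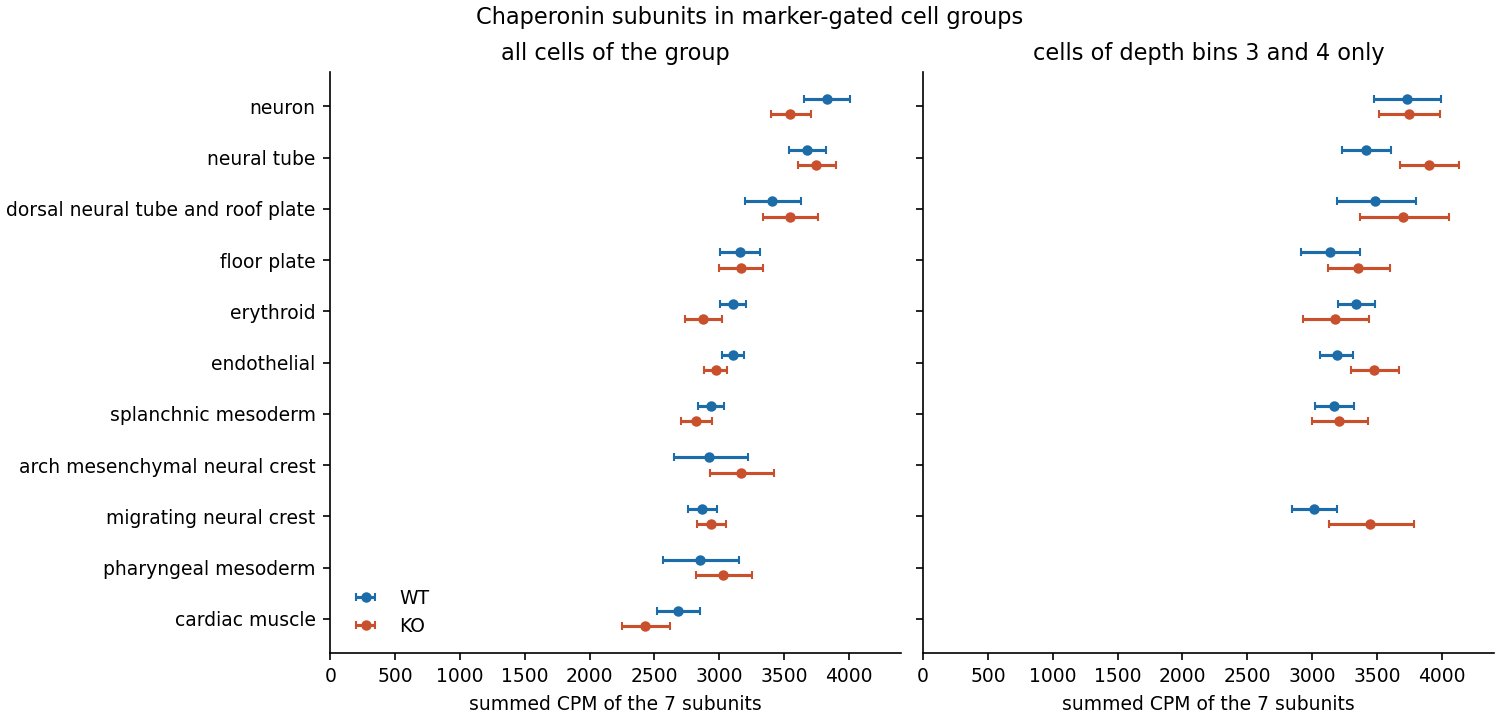
Summed level of the 7 chaperonin subunits in CPM (horizontal axis) in cell groups set by marker genes, in WT (blue) and KO (red), with exact Poisson intervals of 95%; the left panel uses all cells and the right panel cells of depth bins 3 and 4, for groups with at least 50 cells in each library. Neurons, neural tube and dorsal neural tube lie highest in both panels, and cardiac muscle lies lowest in the left one, at 2684 CPM in WT and 2429 in KO.

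Single subunits were counted thinly within most groups. Of 77 ratios between the libraries, 67 had an interval that held 0, 5 were above 0 and 5 below. Over all genes and the same groups, 7.96% of intervals lay off 0, and 38.3% among genes with at least as many UMIs as the least counted subunit of that group. Of the ratios off 0, Tcp1 accounted for 4 of those below 0, with 502 UMIs in WT and 377 in KO in migrating NCCs (−0.31, −0.51 to −0.12) and 320 and 289 in neurons (−0.45, −0.68 to −0.21). Cct7 accounted for 3 of those above 0, with 324 and 359 UMIs in migrating NCCs (0.25, 0.03 to 0.47). Cct4 in arch mesenchymal NCCs had 28 UMIs in 56 WT cells and 81 in 82 KO cells (1.00, 0.36 to 1.67), the widest difference and one of the least counted. In the cells of no group, where the subunits had between 5108 and 8809 UMIs in a library, 5 of 7 intervals lay off 0: Tcp1 was at −0.10, Cct3 at 0.15, Cct4 at 0.06, Cct7 at 0.18 and Cct8 at 0.12. In these cells 38.8% of all genes had an interval off 0, as did 86.2% of the 383 genes with at least as many UMIs as the least counted subunit, so nothing particular to the subunits is read from this count.

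Within the groups, the values by depth describe the same measure that chose the genes, and nothing is read from them. Splitting each group at the pooled median of 1641 UMIs, endothelial cells had 4301 CPM in shallow and 2868 in deep cells of WT (0.58) and 4947 and 2756 in KO (0.84). The neural tube group had 4702 and 3160 CPM in WT (0.57) and 4959 and 3303 in KO (0.59). Erythroid cells of WT had 4052 and 2891 CPM (0.49). Over the 8 WT groups and 4 KO groups with 50 cells on each side, the log2 ratio ran from 0.35 to 0.61 in WT and from 0.55 to 0.84 in KO. Cells in no group gave 0.62 in both libraries.

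The partners of CCT are given beside the subunits as values by depth only. Over all genes, 18% were past the threshold and higher in shallow cells in both libraries, and 22.7% lower, and the counts of each list are to be read against these shares. Of 6 prefoldin genes, 4 were past the threshold and higher in shallow cells in both libraries and 0 lower, with medians of 0.38 in WT and 0.47 in KO. Their most abundant members were Pfdn5 (0.37 and 0.51), Pfdn1 (−0.07 and 0.08), Pfdn4 (0.56 and 0.47) and Pfdn2 (0.39 and 0.47). Of 10 CCT and tubulin cofactors, 4 were higher in both and 0 lower, and their medians were 0.38 and 0.33. Of the 4 with most UMIs, Tbcb, a tubulin cofactor, was at 0.71 and 0.78, Txndc9 at 0.38 and 0.40, and Pdcd5, which binds CCT, at −0.21 and −0.24. Tbca, which takes up beta-tubulin, was at −0.13 in WT and −0.32 in KO, where it was the 1 cofactor past the threshold and lower. The median over all genes was −0.02 in WT and −0.04 in KO.

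The clients of CCT are the next list. Of 16 genes of actins, tubulins and other clients, 5 were higher and 4 lower in shallow cells of both libraries, against the 18% and 22.7% of all genes. Actb was lower, at −0.87 in WT and −1.06 in KO, and Actg1, the other cytoplasmic actin, was at 0.31 and 0.28. The tubulin genes Tuba1b (0.0086 and 0.05) and Tubb5 (−0.09 and −0.12) were nearly level across depth. Cytosolic actins and tubulins have close paralogs and pseudogenes, so their counts are uncertain.

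The other chaperones are given in the same way, and their counts are those of genes past the threshold in both libraries, where all genes gave 18% higher and 22.7% lower. Of 13 genes of the cytosolic Hsp70 and Hsp90 system, 7 were higher and 2 lower in shallow cells of both libraries, with medians of 0.45 and 0.41. Hspa8, the constitutive Hsp70, was at 1.06 and 1.07, Hsp90aa1 at 0.81 and 0.70 and Hsp90ab1 at 0.45 and 0.41, while Ptges3, the Hsp90 cochaperone p23, was at −0.40 and −0.53. Of 7 mitochondrial chaperones, 4 were higher and 0 lower in both libraries, 1 was lower in KO alone, and the medians were 0.50 and 0.50, with Hspd1, the mitochondrial relative of CCT, at 0.85 and 0.80. Of 8 chaperones of the endoplasmic reticulum, 3 were higher and 1 lower. Of the 6 heat shock inducible genes with at least 200 UMIs, 2 were higher (Hsph1 among them, 0.91 and 0.97) and 2 lower (Cryab, −1.91 and −2.09, and Hspb1, −0.99 and −0.54). Of the chaperonin-like BBS proteins, 2 of 3 had 200 UMIs, and Bbs12 was higher in both and Mkks was not past the fold. Of 18 nucleolar and growth genes, 9 were higher and 0 lower, among them Npm1 (0.91 and 0.73) and Ran (0.88 and 0.88), while Ncl was level (0.01 and −0.0094).

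**Figure D4:**
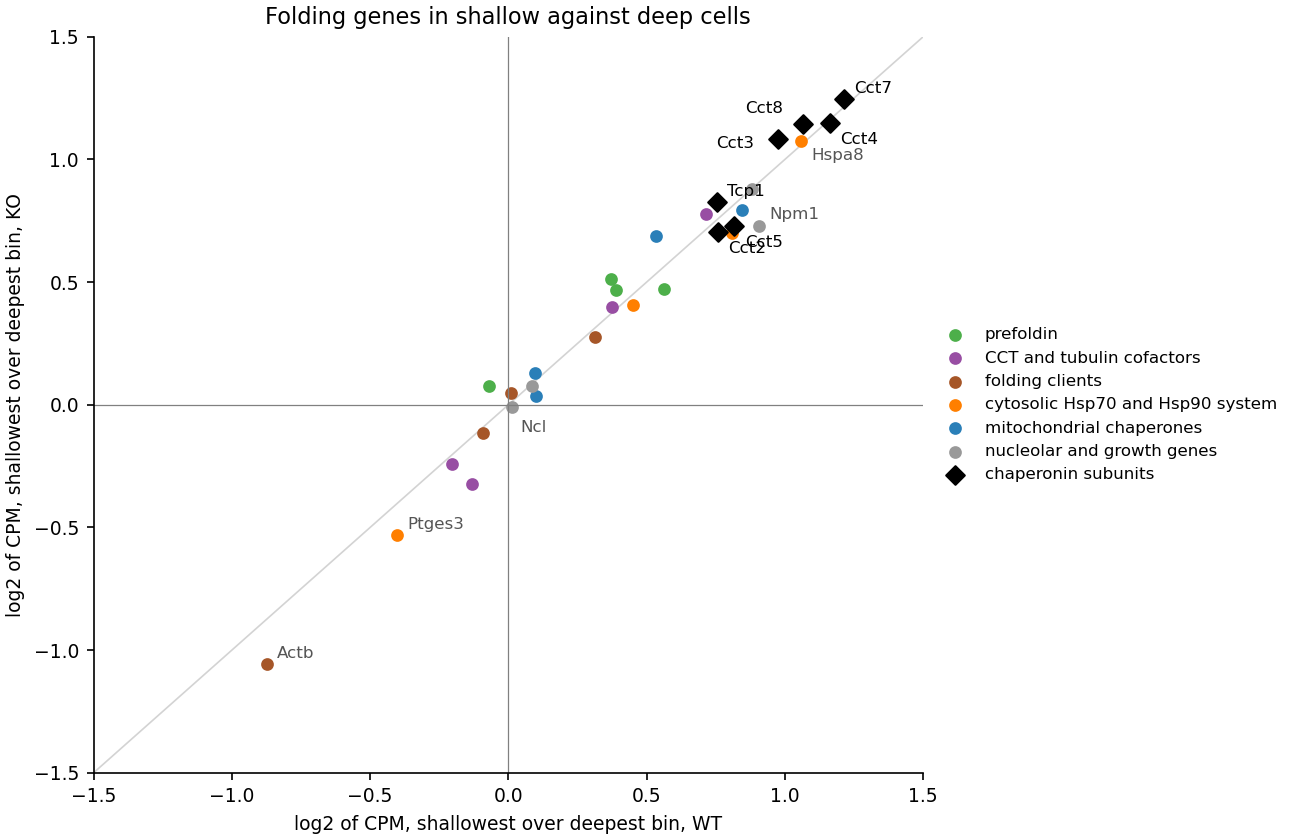
The log2 ratio of CPM of the shallowest over the deepest bin of cells in WT (horizontal axis) and KO (vertical axis) for the 7 chaperonin subunits (black diamonds) and for up to 4 genes with most UMIs from each of 6 other lists (coloured points); the grey diagonal marks equal values. The subunits lie at the upper right, from 0.75 to 1.21 in WT and from 0.70 to 1.247 in KO. Hspa8, Hspd1, Npm1 and Ran lie within these ranges too, and Actb lies at the lower left.

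Between the genotypes, 8 of the 86 genes of these other lists with at least 200 UMIs were past the threshold, against 14.5% of all genes: 5 were higher in KO and 3 lower. Pfdn5 was higher in KO (255 and 323 CPM, 0.34), as were Pdcd5 (648 and 853 CPM, 0.40) and 3 nucleolar and growth genes, Ncl leading with 2038 and 3239 CPM (0.67). The lower ones were 1 gene each of the Hsp70 and Hsp90 system, the heat shock inducible genes (Hspb1, −0.39) and the BBS proteins (Mkks, −0.41). The medians of the lists with at least 6 genes lay between −0.10 (clients) and 0.15 (prefoldin), and that of the subunits was 0.04.

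The head-to-head neighbours of the subunits are described by the same values. Mrpl18, a mitochondrial ribosomal protein gene next to Tcp1, had 315 CPM in WT and 397 in KO, and its ratio of shallow over deep was −0.19 (−0.30 to −0.07) in WT and −0.25 (−0.40 to −0.11) in KO. Fam173b, 48 bases from Cct5 across the stretch printed above, had 31.4 and 33.5 CPM and ratios of −0.28 and −0.07, with intervals that held 0. Pradc1 at Cct7 had 20.8 and 17.6 CPM and ratios of −0.20 and −0.04, also with intervals that held 0. Tsacc, across from Cct3, had 10.2 and 10.5 CPM, with −0.81 (−1.57 to −0.10) in WT and −0.13 (−1.06 to 0.70) in KO.

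The genes whose pattern over cell groups was most like that of the summed subunits were found over 20 points, the 10 groups of the rule with all markers in each library. Likeness was Pearson's r of log2(CPM + 10) over 6293 genes with at least 1000 UMIs. The points share libraries and differ in depth, so r is a description. Eef1a1, a translation elongation factor, came first at 0.90, followed by the chromatin protein Hmgb2 (0.84) and Hspa8 (0.84). Then came Lrrc42 (0.82), Hnrnpa2b1 (0.81), Ran (0.81), Ddx5 (0.80), Tpm2 (0.80), Ank3 (0.79) and Dhx9 (0.78). Of these, 8 were higher in shallow cells of both libraries by 0.76 or more, and Ank3 and Tpm2 were lower in shallow WT cells. Among the subunits themselves, r with their sum ran from 0.49 for Cct2 to 0.91 for Cct4, each being part of that sum.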

How the data were processed

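The files hold 1 library of 3′ droplet single-cell RNA-seq per genotype. Per their methods the authors counted UMIs with Cell Ranger 1.3.1, told samples apart by MULTI-Seq and filtered cells and doublets. At which stage the deposited cells were taken is not given. The labels name mm10, whereas the methods name a human genome with the reporter. The deposited values are a signal: each UMI count divided by the total of its cell, scaled by the authors to 1641 and square-root transformed. UMIs were recovered by squaring and dividing by the smallest nonzero square of each cell, and 100% of values were whole within 0.01. Levels are summed UMIs per 1000000 UMIs. No model was fitted, since each genotype had 1 library, and the count scalings were computed on recovered UMIs. Genes with at least 200 UMIs entered counts of levels over 25% apart.

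Intervals of 95% cover counting error only. They were tested on simulated counts that held counting error alone, which says nothing about spread between cells or embryos. The members and gene lists were chosen with earlier results of these data known. Named from the lists were up to 4 genes with most UMIs. Groups without widely found markers, groups at like depth and the head-to-head neighbours were added after the data were seen. No doublet caller was run here. An alternative left out the deepest 5% of cells. Python with numpy, scipy and pandas was used.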

Additional observations from a re-analysis of the deposited data

How the results depend on the processing

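No paired analysis was possible because each genotype had 1 library and the labels carry no replicate numbers. In none of the alternatives of scaling, weighting and cell filter did a subunit pass the threshold between KO and WT. The summed ratio of KO over WT (0.04) became 0.10 with a median of ratios, 0.094 with a trimmed mean of log ratios, 0.13 with cells thinned to 1000 UMIs, 0.084 without cells under 1000 UMIs and 0.12 at the same shares of the depth bins. Thinning also left out the cells under 1000 UMIs. The 2 scalings moved the median of all genes from −0.06 to about 0. Under the alternatives, 33 ratios of single subunits left the interval of their main value and lay between −0.08 and 0.31, the highest being Cct7 after thinning, and 8 shares of the make-up did, between 10.3% and 16.5%. The ratio of shallow over deep became 0.83 in WT and 0.87 in KO with 3 bins of depth in place of 5, 0.91 and 0.94 without the deepest 5% of cells, 0.92 in WT with 8 groups without widely found markers at the same shares, and 1.04 in KO with all markers at the same shares, where only 2 groups had enough cells. The ratio of the cells that met the cardiac rule over migrating NCCs became 0.12 in WT and 0.14 in KO at the same shares of the 4 and 3 depth bins with enough cells, and 0.52 in KO after thinning. Without widely found markers, an alternative added after the data were seen, it reversed to −0.10 and −0.27. The cause was not tested. The alternative without erythroid cells, also added then, gave 0.95 and 0.99 for shallow over deep. Counting error is widest in the small groups, and the spread between embryos is not known.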

Other observations

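Other large complexes were examined by depth in the same way, and were chosen after their values were seen, so their counts are descriptions. Of 35 genes of the proteasome, the protease of the cytosol and nucleus, 28 were past the threshold and higher in the shallowest bin of 5 in WT and 29 in KO, and 2 and 1 were lower, with medians of 0.68 and 0.65. Of 12 genes of the translation initiation factor eIF3, 10 were higher and 0 lower in each library, with medians of 0.78 and 0.72. Over all genes, 25.8% in WT and 26.3% in KO were past it and higher, and 29.2% and 32.5% lower. Of 9 COP9 signalosome genes, 3 were higher in WT and 4 in KO, and 1 and 2 lower. Of 9 Arp2/3 genes, which build branched actin, 2 and 3 were higher, and 1 was lower in each library. Of 14 genes of the V-type ATPase, the proton pump of lysosomes, 2 and 3 were higher and 7 and 5 lower. In the proteasome 16 of 35 genes, and in eIF3 7 of 12, had a ratio at or above that of the lowest of the 7 chaperonin subunits in each library. Between KO and WT, 0 of the proteasome, eIF3 and COP9 signalosome genes were past the threshold, against 14.5% of all genes, while 1 Arp2/3 gene and 2 of the V-type ATPase were lower in KO. The medians of the proteasome and eIF3 genes were 0.07 and 0.03.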
